A study of Homo sapiens with 6 samples.

Results

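The Tribbles pseudokinases TRIB1, TRIB2 and TRIB3 were followed in MDA-MB-231, an established line of human triple negative breast cancer cells, after treatment with the multi-kinase inhibitor EC-70124. The 3 genes were taken by gene symbol out of 18417 genes with a probe set of their own. The family was chosen by its changes in this same comparison, so that its levels and fold changes are given here as a description, with no test. EC-70124 samples (n = 3) were exposed to 500 nM for 24 h, and control samples (n = 3) were untreated cells of the same line. The paper's methods call the 3 samples of each group independent, and whether a vehicle was added to the controls is not given in the sources used here. Each sample was measured on 1 Affymetrix Human Gene ST array, and the authors deposited 1 intensity per probe set and array, the model-based expression index (MBEI) on a linear scale.

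Tribbles proteins keep the fold of a serine/threonine kinase but have weak or no catalytic activity. They act as scaffolds, and their C-terminal tail binds the ubiquitin ligase COP1 and the kinase MEK1, which brings substrates such as the transcription factor C/EBPalpha to the ligase. TRIB1 and TRIB2 are known for this degradation of C/EBPalpha and for their role in leukemia, and TRIB2 also for restraining FOXO factors. TRIB3 is known as a gene that ATF4 and CHOP switch on under stress, and its product binds AKT kinases.

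TRIB3 was higher and TRIB1 and TRIB2 were lower in the EC-70124 arrays than in the control arrays, and for each of the 3 genes the groups did not overlap. TRIB3, on probe set 8060344, had intensities of 2623, 2610 and 2071 in EC-70124 replicates 1, 2 and 3, against 781, 845 and 818 in control replicates 1, 2 and 3. The treated arrays were thus well above the controls, with replicate 3 the lowest of the treated arrays. The mean was 2435 ± 315 in EC-70124 cells and 815 ± 32.2 in control cells (SD, n = 3 each), a log2 fold change of 1.57 (standard error 0.10), or 2.97-fold. TRIB2, on probe set 8040365, had intensities of 465, 465 and 461 in EC-70124 replicates 1, 2 and 3, against 941, 1042 and 901 in the control replicates. Its treated arrays lay close together at about the same level, and the controls were more spread. The mean was 464 ± 2.60 in EC-70124 cells and 961 ± 72.6 in control cells (SD, n = 3 each), a log2 fold change of -1.05 (standard error 0.07). TRIB1, on probe set 8148304, had intensities of 1214, 1218 and 1166 in EC-70124 replicates 1, 2 and 3, against 2026, 2142 and 1912 in the control replicates. Again all treated arrays were below all controls, and control replicate 2 was the highest array for TRIB1 and TRIB2. The mean was 1199 ± 29.0 in EC-70124 cells and 2027 ± 115 in control cells (SD, n = 3 each), a log2 fold change of -0.76 (standard error 0.06). Groups of 3 arrays that do not overlap were common in this experiment, with EC-70124 higher in 25.6% of all genes and lower in 22.0%. These are levels of a whole culture, in which fewer cells that carry a transcript and less of it per cell cannot be told apart.

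**Figure D1:**
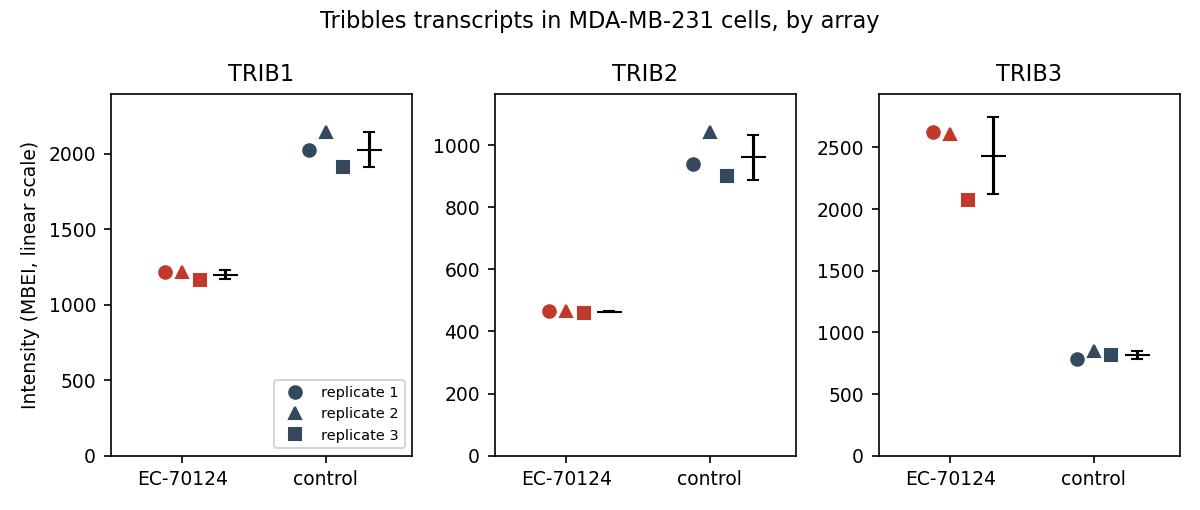
Intensity (MBEI, linear scale, y axis from 0) of TRIB1, TRIB2 and TRIB3 in the EC-70124 arrays (red, left) and the control arrays (dark blue-gray, right), each gene on an axis of its own,, with 1 symbol per replicate number and the mean ± SD of 3 arrays in black. The treated arrays of TRIB3 lie between 2071 and 2623 and its controls between 781 and 845, whereas the treated arrays of TRIB1 and TRIB2 lie below their controls.

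The members were placed among all genes by the size of their change. TRIB3 held rank 80 of 18417 when genes were ordered with the largest log2 fold change first. TRIB2 held rank 104 and TRIB1 rank 315 when they were ordered with the lowest first. The spread within groups differed among the 3 genes. The pooled SD of the log2 values was 0.14 for TRIB3, 0.08 for TRIB2 and 0.06 for TRIB1, beside a median of 0.09 over all genes. Most of the spread of TRIB3 came from EC-70124 replicate 3, and without that array its log2 fold change was 1.68. The log2 difference of TRIB2 from its controls was larger than that of TRIB1 in each treated array. Taken from each gene's own control mean, the log2 value of TRIB2 minus that of TRIB1 was -0.31, -0.31 and -0.26 in EC-70124 replicates 1, 2 and 3, against -0.03, 0.04 and -0.01 in the control replicates. The distance between 2 patterns was taken as the root mean square difference of such log2 deviations over the 6 arrays. It was 0.21 between TRIB2 and TRIB1, 1.65 between TRIB3 and TRIB1 and 1.86 between TRIB3 and TRIB2. Levels of different probe sets were not compared, since probes differ in how brightly they bind. The log2 fold changes of TRIB2 and TRIB1 also come from different probe sets, and no measure of background was used. With an offset of 50 they were -0.97 for TRIB2 and -0.73 for TRIB1.

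The sequence before the start of TRIB2 and TRIB3 is shown because these members differed from the controls in opposite directions. RefSeq (GRCh38.p14) gives 1 start for TRIB2 and 3 starts for TRIB3 in the table used here, all on the + strand, and TRIB1 has no entry in it. The 3 starts of TRIB3 lie inside the span that the same assembly gives to the gene. The 250 bases before the start are given for TRIB2 (chr2:12716686-12716935) and for the first of the TRIB3 starts (chr20:381045-381294). Capitals mark a match to the forkhead element GTAAACA, searched on both strands.
TRIB2: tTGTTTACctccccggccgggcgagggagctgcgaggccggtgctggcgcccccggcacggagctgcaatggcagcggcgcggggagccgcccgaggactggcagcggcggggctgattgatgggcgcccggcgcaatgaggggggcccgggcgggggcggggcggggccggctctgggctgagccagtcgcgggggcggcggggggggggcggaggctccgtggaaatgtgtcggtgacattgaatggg
TRIB3: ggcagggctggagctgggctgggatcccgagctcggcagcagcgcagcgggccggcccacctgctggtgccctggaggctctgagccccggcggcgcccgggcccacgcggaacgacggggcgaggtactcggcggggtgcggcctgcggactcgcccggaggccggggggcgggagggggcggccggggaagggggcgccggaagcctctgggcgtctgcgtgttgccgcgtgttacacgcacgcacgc
Both stretches are rich in G and C. In the window of 300 bases, from 250 before to 50 after the start, G and C made up 77.3% for TRIB2 and 77.0% for TRIB3, beside a median of 58.3% over the first window of 27305 genes. In such windows, TRIB2 held 42 CpG and TRIB3 held 38, beside a median of 14 over all genes. The motifs searched on both strands were GTAAACA, the cAMP response element TGACGTCA and TGATGNAA, the composite element of C/EBP and ATF factors. GTAAACA was found in TRIB2 and not in TRIB3, at position -249 (its first base counted from the start, with the base before the start as -1), and 4.19% of all genes hold it in a window of this length. TGACGTCA was in neither gene and in 2.25% of all genes, and TGATGNAA was in neither gene, in any of the windows, and in 4.46% of all genes. Of the ATF4 target genes described next, 14 of 36 with a window held TGATGNAA. The stretches of 30 bases around it are shown for the 3 of them with the largest rise, the glutathione-degrading enzyme CHAC1 (chr15:40953251-40953280, + strand, first base at -209), the stress factor ATF3 (chr1:212565205-212565234, + strand, at -191) and the asparagine synthetase ASNS (chr7:97872458-97872487, - strand, at -68), each read 5′ to 3′ along its gene with the match in capitals.
CHAC1: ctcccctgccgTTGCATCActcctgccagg
ATF3: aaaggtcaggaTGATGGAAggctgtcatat
ASNS: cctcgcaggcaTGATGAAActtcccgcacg
A match is a description of the letters and was not tested as a binding site, and a window without one says nothing of the factor.

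TRIB3 was higher, as were most of the genes that ATF4 is known to switch on in human or mouse cells. Of 44 measured ATF4 target genes (45 listed, without TRIB3), 37 were up-regulated, 2 were down-regulated and 5 did not pass, at an adjusted p under 0.05 from limma. As the background of these counts, 19.7% of all genes were up-regulated and 14.8% down-regulated. The median log2 fold change of the list was 0.60, against 0.00 over all genes. CHAC1 had intensities of 5480, 5472 and 4012 in EC-70124 replicates 1, 2 and 3, against 632, 662 and 624 in the control replicates, a log2 fold change of 2.95 (standard error 0.12, limma adjusted p = 3.8e-06). As in TRIB3, EC-70124 replicate 3 was the lowest treated array. STC2, a secreted glycoprotein, had a mean intensity of 896 ± 13.6 in EC-70124 cells and 124 ± 17.1 in control cells (SD, n = 3 each), a log2 fold change of 2.86. The stress-induced regulator NUPR1 had a log2 fold change of 2.79, and DDIT3, which encodes CHOP, of 2.24. The fold change of TRIB3 was below that of 9 of the 44 targets and above that of the other 35, and its closest neighbors in that order were PPP1R15A (1.63), a subunit of the phosphatase that acts on eIF2alpha, and CTH (1.56), an enzyme of cysteine synthesis. The 2 listed targets that fell were VLDLR, a lipoprotein receptor (log2 fold change -0.90), and ALDH18A1, an enzyme of proline synthesis (-0.53). EC-70124 replicate 3 was the lowest treated array for 20 of the 37 up-regulated targets and the highest for 16, so that the lower TRIB3 in this array was not shared by the whole list. Over all up-regulated genes it was the lowest treated array in 40.2%.

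Upstream of TRIB3, kinases that phosphorylate eIF2alpha raise the translation of ATF4, and ATF4 and CHOP act on the TRIB3 gene. Of 16 genes of these kinases, of the phosphatase subunits that reverse them and of stress transcription factors, 9 were up-regulated (56.2%, against 19.7% of all genes), 3 were down-regulated (18.8%, against 14.8%) and 4 did not pass, with a median log2 fold change of 0.44. All 3 that fell were kinases. EIF2AK3, which encodes PERK, had a mean intensity of 861 ± 71.0 in EC-70124 cells and 1241 ± 21.3 in control cells (SD, n = 3 each), a log2 fold change of -0.53 (limma, adjusted p = 0.000645). EIF2AK4, which encodes GCN2, had a log2 fold change of -0.29 and EIF2AK1 of -0.25, and EIF2AK2, which encodes PKR, did not pass (0.01, adjusted p = 0.871 from limma). ATF4 itself, on the brighter of its 2 probe sets, had intensities of 7083, 6705 and 6559 in EC-70124 replicates 1, 2 and 3, against 4974, 5025 and 4845 in the control replicates. Its log2 fold change was 0.45 (standard error 0.06, limma adjusted p = 0.00041), less than that of TRIB3 or of the factors DDIT3 (2.24), NUPR1 (2.79) and ATF3 (2.12) in the same list, and PPP1R15A had 1.63. The other ATF4 probe set went the other way, with a log2 difference of -0.27, so that the direction of ATF4, counted here among the 9, depended on the probe set. In the control arrays the 2 sets had similar means, 12.27 on the log2 scale for the set used and 12.28 for the other. The set used was thus the brighter on average only through the treated arrays, and its adjusted p is subject to that choice. The arrays measure transcripts, so that phosphorylation of eIF2alpha and translation of ATF4 were not measured. DDIT3, ATF3, NUPR1, PPP1R15A, CEBPG and ATF5 are also in the list of ATF4 targets.

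**Figure D2:**
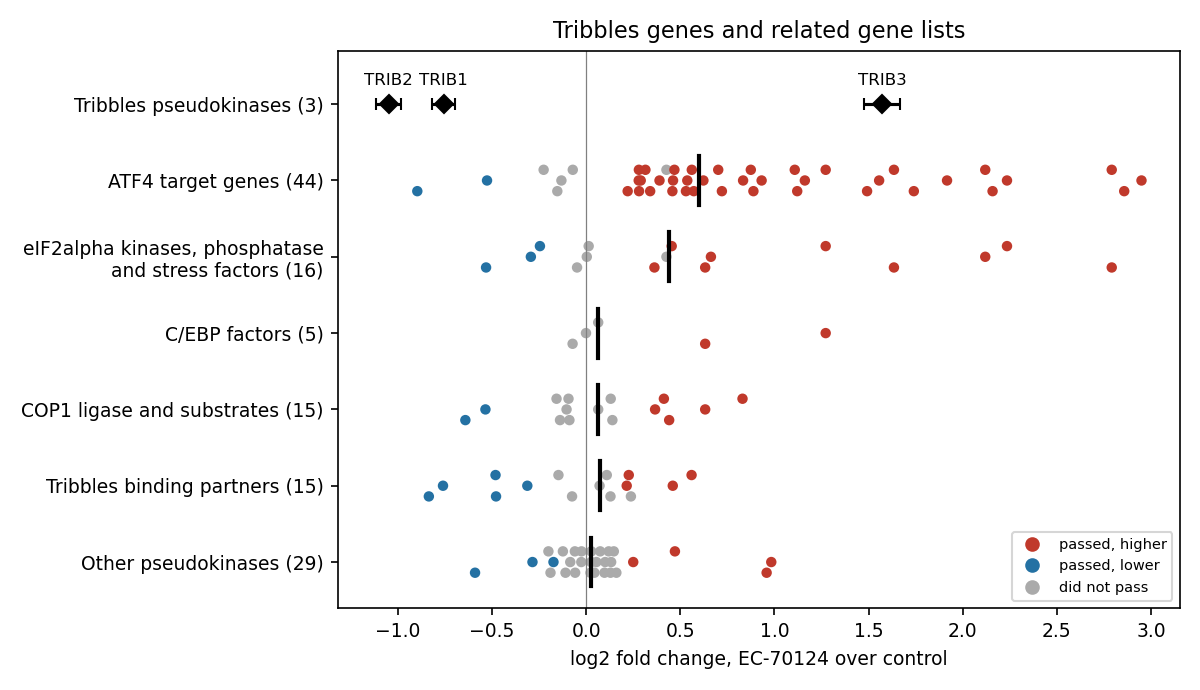
Log2 fold change (EC-70124 over control, 3 arrays each, x axis) of the 3 Tribbles genes (black, with the standard error) and of each measured gene of 6 lists (y axis, number of genes in parentheses), red where it was up-regulated, blue where it was down-regulated and gray where limma's adjusted p was not under 0.05. Black bars are list medians, which run from 0.03 for other pseudokinases to 0.60 for ATF4 target genes. Each Tribbles gene lies outside the range of the other pseudokinases, but the Tribbles family was chosen by its changes in this comparison.

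The C/EBP factors are substrates that TRIB1 and TRIB2 are known to bring to COP1, or partners of CHOP and ATF4. Of the 5 genes, CEBPG and CEBPB passed as up-regulated (40%, against 19.7% of all genes). No gene of the list passed as down-regulated, against 14.8% of all genes. Whether these shares differ from those of all genes was not tested. CEBPG and CEBPB are also counted in the list of eIF2alpha kinases, phosphatase subunits and stress transcription factors, so that this count adds no further called genes. CEBPG, a partner of ATF4, had a mean intensity of 3200 ± 454 in EC-70124 cells and 1316 ± 43.3 in control cells (SD, n = 3 each), a log2 fold change of 1.27 (limma, adjusted p = 5e-05). CEBPB had a log2 fold change of 0.63 (limma, adjusted p = 0.00027). CEBPA, which encodes the substrate C/EBPalpha, did not pass, with intensities of 735, 844 and 826 in EC-70124 replicates 1, 2 and 3, against 835, 751 and 715 in the control replicates, and these groups overlap. Its log2 fold change was 0.06 (standard error 0.08), that of CEBPD was -0.07 and that of CEBPE was -0.00, and neither of these passed. Protein levels of C/EBPalpha, on which COP1 acts, were not measured by the arrays.

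COP1 itself had intensities of 1246, 1204 and 1079 in EC-70124 replicates 1, 2 and 3, against 1337, 1319 and 1138 in the control replicates. Its groups overlap, and the log2 fold change of -0.10 did not pass (standard error 0.08, limma adjusted p = 0.401). Of 15 genes of the COP1 ligase and its substrates, 5 were up-regulated (33.3%, against 19.7% of all genes), 2 were down-regulated (13.3%, near the 14.8% of all genes) and 8 did not pass, with a median log2 fold change of 0.06. DET1, which links COP1 to the CUL4 ligase, had intensities of 642, 643 and 806 in EC-70124 replicates 1, 2 and 3, against 393, 394 and 382 in the control replicates, a log2 fold change of 0.83. Its other probe set had a log2 difference of -0.01. CEBPB is one of the others that rose. The 2 that fell were ETV4 and ETV1, transcription factors that COP1 marks for degradation, with log2 fold changes of -0.64 and -0.53. EC-70124 replicate 3 lay apart for ETV1, at 2206 beside 3402 and 3610 in the other treated arrays. The count of falls was 4 without EC-70124 replicate 3 and 1 without each of control replicates 1, 2 and 3.

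Transcripts of other proteins that Tribbles members are known to bind, or that act on them, were called in both directions. Of 15 measured partner genes (17 listed), 4 were up-regulated (26.7%, against 19.7% of all genes), 5 were down-regulated (33.3%, against 14.8%) and 6 did not pass, with a median log2 fold change of 0.07. ACACA, the acetyl-CoA carboxylase that TRIB3 brings to COP1 in mouse fat, fell to a mean intensity of 1187 ± 125 in EC-70124 cells, against 2111 ± 31.8 in control cells (SD, n = 3 each), a log2 fold change of -0.84 (limma, adjusted p = 0.00011). PPARG, a factor of fat cell differentiation, had a log2 fold change of -0.76, and BTRC, a ubiquitin ligase subunit that acts on TRIB2, of -0.48. SIAH1, a ubiquitin ligase that binds TRIB3, had a log2 fold change of 0.56, with 928 ± 101 in EC-70124 cells and 627 ± 27.1 in control cells (SD, n = 3 each). MAP2K1, which encodes the MEK1 bound by the Tribbles tail, was down-regulated with a log2 fold change of -0.31 (limma, adjusted p = 0.0026). The AKT kinases bound by TRIB3 did not pass, with log2 fold changes of -0.15 for AKT1 and -0.07 for AKT2. The count of rises in this list was 2 without EC-70124 replicate 2.

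The remaining pseudokinases of other families are described beside the 3 Tribbles genes. Of 29 measured (30 listed), 4 were up-regulated, 3 were down-regulated and 22 did not pass. The shares were 13.8% up-regulated and 10.3% down-regulated, beside 19.7% and 14.8% of all genes. Whether these shares differ was not tested, and after quantile normalization 5 of the 29 were down-regulated. Their log2 fold changes ran from -0.59 for PTK7, a receptor of Wnt signaling, to 0.98 for TBCK, a regulator of mTOR signaling. The fold changes of TRIB1 and TRIB2 were below that range and that of TRIB3 was above it. The Tribbles family was chosen by its changes in this same comparison, so that a place outside the range may follow from that choice. Whether the family differs from other pseudokinases was not tested. TBCK had intensities of 2181, 2188 and 2098 in EC-70124 replicates 1, 2 and 3, against 1022, 1178 and 1077 in the control replicates, and these groups do not overlap. SCYL3 and SCYL2, of a family with roles in membrane traffic, had log2 fold changes of 0.96 and 0.47. STK40, the pseudokinase closest to the Tribbles family in sequence, did not pass (log2 fold change 0.10, standard error 0.08, adjusted p = 0.362 from limma). The count of falls in this list was 1 without control replicate 1 or 2.

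The genes whose pattern over the 6 arrays was most like that of each member were named by the smallest distance as defined above. For TRIB3 these were CTH (0.052), KCTD16 (0.053), NUDT17 (0.059), THUMPD2 (0.067) and MYO5B (0.068). CTH, one of the ATF4 targets, had intensities of 4803, 4733 and 4148 in EC-70124 replicates 1, 2 and 3, against 1503, 1556 and 1586 in the control replicates. Its treated replicate 3 was the lowest, as in TRIB3 and in each of the other genes named for TRIB3. This likeness follows from the way these genes were picked. For TRIB2 the closest were NAV1 (0.041), MGLL (0.043), DMBT1 (0.043), FN1 (0.049) and GLCCI1 (0.051). MGLL encodes an enzyme that releases fatty acids from monoglycerides, and FN1 encodes fibronectin. For TRIB1 the closest were TLE3 (0.025), LIMCH1 (0.031), PTPRF (0.032), PDIA4 (0.032) and ARMH4 (0.036). TLE3 encodes a corepressor of transcription, PTPRF a receptor tyrosine phosphatase and PDIA4 a protein disulfide isomerase of the endoplasmic reticulum. These distances are a description over 6 arrays, in which the difference between the groups makes up most of each pattern.

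**Figure D3:**
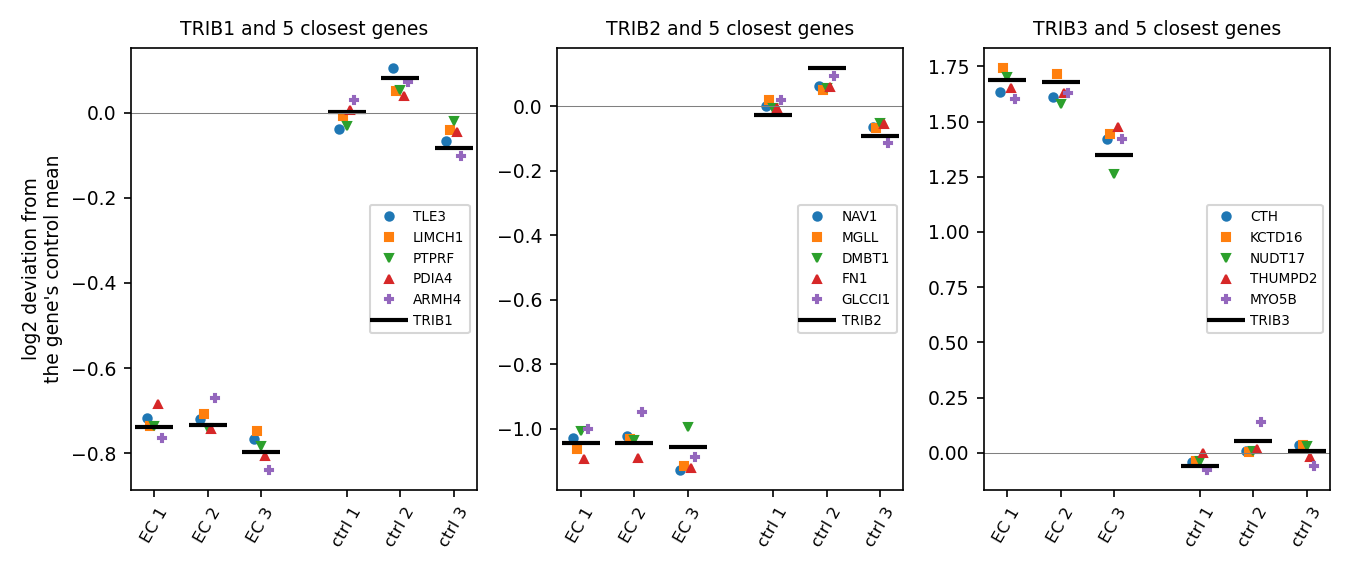
Log2 deviation from the gene's own control mean (y axis) in each EC-70124 array (left) and control array (right) for each Tribbles gene (black bars) and the 5 genes with the closest pattern (colored symbols). The treated arrays of TRIB3 lie at 1.69, 1.68 and 1.35, and CTH has the closest pattern.

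Genes next to the members on the chromosome were called in shares near those of all genes. Of the 18 nearest protein-coding genes tested, 3 on each side of each member, 4 were up-regulated, 3 were down-regulated and 11 did not pass, where 19.7% of all genes were up-regulated and 14.8% down-regulated. Around TRIB3, RBCK1, a subunit of a ubiquitin ligase of NF-kappa-B signaling, was the gene of 6 that passed, with a mean intensity of 4539 ± 107 in EC-70124 cells and 3381 ± 105 in control cells (SD, n = 3 each). Its log2 fold change was 0.42, and the other 5 (ZCCHC3, SOX12, NRSN2, TBC1D20 and TCF15) had log2 fold changes of -0.18 to 0.16. Around TRIB2, LPIN1, an enzyme of triglyceride synthesis, had a log2 fold change of -0.50 (limma, adjusted p = 0.00027) and NBAS of -0.63, whereas DDX1 had 0.40, and GREB1, NTSR2 and LRATD1 did not pass (-0.14, 0.12 and -0.17). Around TRIB1, SQLE, an enzyme of cholesterol synthesis, fell to 580 ± 14.6 in EC-70124 cells, against 1269 ± 46.0 in control cells (SD, n = 3 each), a log2 fold change of -1.13. WASHC5 and NSMCE2, which lie between SQLE and TRIB1, were up-regulated with log2 fold changes of 0.52 and 0.45. On the other side of TRIB1, LRATD2, POU5F1B and MYC had log2 fold changes of 0.10, 0.13 and -0.20 and did not pass, the last with an adjusted p of 0.0529 from limma. POU5F1B is a close copy of another gene, so that its signal is uncertain.

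**Figure D4:**
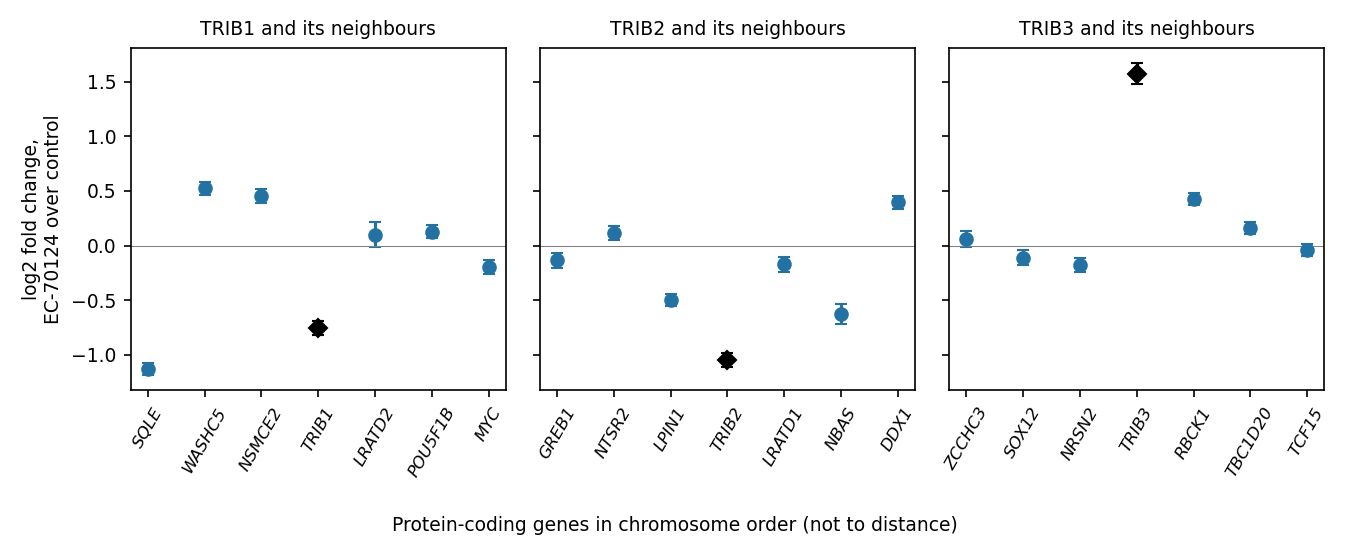
Log2 fold change with its standard error (EC-70124 over control, y axis) of each Tribbles gene (black diamonds) and of the 3 nearest protein-coding genes tested on either side (blue circles), in chromosome order and not to distance. TRIB3 at 1.57 stands beside neighbors between -0.18 and 0.42, whereas SQLE near TRIB1 fell by more (-1.13) than TRIB1 (-0.76). The Tribbles family was chosen by its changes in this comparison, and the neighbors were not.

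Among all 18417 genes the counts were 3631 up-regulated and 2722 down-regulated, a share of 57.2% higher among the genes called, which was 46.9% after quantile normalization. Column medians were 450.6 to 460.1 in the EC-70124 arrays and 437 to 444 in the control arrays. Markers named for the line gave MSN, CD44 and AXL down-regulated (log2 fold changes -0.66, -0.29 and -0.27), while VIM and CAV1 did not pass (-0.07 and 0.03). A triple negative line should lack the hormone receptors ESR1 and PGR and should not overexpress HER2, which ERBB2 encodes. ESR1, PGR and ERBB2 did not pass, with mean intensities of 208, 158 and 1515 in EC-70124 cells and 225, 166 and 1486 in control cells. ERBB2 was thus above the column medians and ESR1 and PGR were below them. No measure of background was used here, so that the absence of ESR1 and PGR could not be tested, nor could overexpression of ERBB2 without other lines. Of the measured leukocyte markers PTPRC, CD3E and ITGAM and endothelial markers PECAM1, CDH5 and VWF, none passed limma after adjustment, and ITGAM passed at an unadjusted p under 0.05 (0.0411). PECAM1 had a log2 difference of -0.04 on the probe set used and of -0.67 on its other, dimmer one.

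The fold changes of the 3 members were computed again under 15 alternatives of normalization, offset, test and left-out arrays. TRIB3 ran from 1.503 to 1.68, TRIB2 from -1.11 to -0.97 and TRIB1 from -0.84 to -0.71 on the log2 scale. None changed its direction, but many of these alternatives could not have reversed a member. Those that alter only the genes kept, the choice among probe sets or the test leave the values as they were. With an array left out, groups that do not overlap keep their order.

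**Figure D5:**
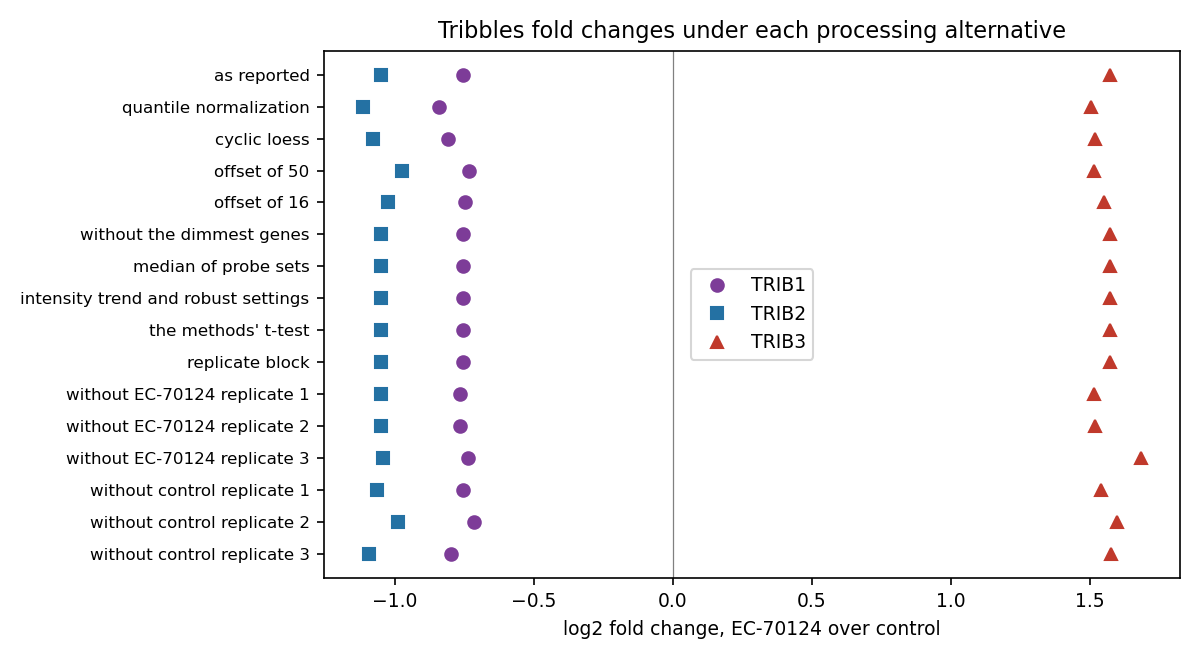
Log2 fold change (EC-70124 over control, x axis) of TRIB1, TRIB2 and TRIB3 as reported and under each of 15 processing alternatives (y axis). TRIB3 stays between 1.503 and 1.68 and TRIB1 and TRIB2 stay below 0. Alternatives that alter only the genes kept, the choice among probe sets or the test leave the values as reported.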

How the data were processed

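Values were deposited as an intensity on a linear scale, which the authors computed in dChip by its probe model after aligning the arrays on probes of unchanged rank. Any deposited value under 1 was raised to 1 before the log2 step. The version of dChip is not given in the sources used here. Of 33252 probe sets, 19460 carry 1 gene symbol, 1754 several and 12038 none in the platform annotation. Where a symbol had several probe sets the brightest on average was kept, which gave 18417 genes, and each Tribbles gene has 1 such probe set. EC-70124 and control arrays were compared over all genes by the moderated linear model of limma 3.58.1 (R 4.3.3), 2-sided, with Benjamini-Hochberg adjustment and a threshold of 0.05. On simulated data for this comparison the test was checked for recovery of known changes.

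The members and lists were chosen with earlier results of these data known. Lists came from textbook knowledge, and their members without a probe set of their own were left out. Named are the members, the 4 largest called changes of each list (all of a list of 5), the 5 closest patterns and the neighbors. ATF4, the kinases of eIF2alpha, VLDLR, ALDH18A1, ASNS, COP1, MAP2K1, AKT1, AKT2 and STK40 were named after their values were seen. Precision is limited by the number of arrays, and log2 fold changes had a median standard error of 0.07. Alternatives were quantile or cyclic loess normalization, offsets of 16 and 50, leaving out the dimmest 30% of genes, the median of probe sets, the methods' t-test, limma with a trend and robust settings, the replicate block and each array left out.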

Additional observations from a re-analysis of the deposited data

How the results depend on the processing

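Of 255 values (17 results under 15 alternatives each), 235 stayed within a tolerance of the reported ones and 20 moved past it. A reversal was defined only for the log2 fold changes of the 3 members, and none of these reversed. Counts could not reverse. Some alternatives could not move the fold changes, and leaving out an array could not reverse them, as said above. The tolerance was a factor of 1.5 for counts, which is wide for large counts (2722 falls as reported and 3527 after quantile normalization lie within it), and 1 SD between replicates for the log2 fold changes of the members. The paper's methods name a t-test only as the score for ranking genes in the gene-set analysis. A Welch t-test per gene on log2 values, run here, called 1962 genes up-regulated and 1280 down-regulated after adjustment, and 5011 genes passed at the nominal threshold that the methods set for gene sets. Of the ATF4 targets, the Welch t-test called 27 up-regulated, against 37 as reported, which lies within the tolerance for counts. It called 2 genes of the COP1 list up-regulated and 1 down-regulated, and 1 C/EBP gene up-regulated. It also called 2 binding partners up-regulated and 2 down-regulated, and 1 other pseudokinase down-regulated. After quantile normalization TRIB1 had a log2 fold change of -0.84, 5 ATF4 targets were down-regulated and 5 other pseudokinases were down-regulated. Falls among ATF4 targets numbered 4 with cyclic loess and 5 with an intensity trend and robust settings. When single arrays were left out, the COP1 list had 1 to 4 falls, the binding partners 2 to 4 rises and the other pseudokinases 1 to 3 falls. The cause was not tested. With the replicate number as a block, the counts were 3521 up-regulated and 2662 down-regulated genes. The labels share only a number: deviations from the group means correlated at 0.127, -0.0225 and 0.136 for numbers 1, 2 and 3 across genes, and not every array correlated best with its own number. No measure of background was used with the deposited values, which limits what can be said of dim probe sets.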
